A study of Mus musculus with 30 samples.

Results

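The enzymes that build cholesterol and fatty acids were followed in the hypothalamus of mice that had been fasted, fasted in the cold, refed or left on food. The 34 genes were chosen by symbol and matched by Ensembl gene ID, out of 55401 genes in the longest of 3 count tables. They are 17 enzymes of the mevalonate and sterol pathway, 4 genes that control the pathway or carry sterols, and 13 genes of fatty acid synthesis, elongation and desaturation. The sterol enzymes are Hmgcs1, Mvk, Pmvk, Mvd, Idi1, Fdps, Fdft1, Sqle, Lss, Cyp51, Tm7sf2, Msmo1, Nsdhl, Hsd17b7, Ebp, Sc5d and Dhcr7. The control and transport genes are Insig1, Srebf1, Srebf2 and Stard4. The fatty acid genes are Acaca, Acacb, Fasn, Acly, Acss2, Scd1, Scd2, Elovl5, Elovl6, Fads1, Fads2, Me1 and Thrsp.

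Total RNA from hypothalamus of wild-type B6 mice was depleted of ribosomal RNA and sequenced as 30 bulk libraries in 9 groups. A first table held mice fasted for 24 h (n = 3 libraries), mice fasted for 72 h with cold treatment at 18 C (n = 3), mice fasted for 72 h without it (n = 3), and fed mice (n = 3). A second table held mice refed for 1 h (n = 3), 12 h (n = 3) or 1 week (n = 4) after a 72 h fast, with no fed group. The last table held mice refed for 1 month after a 72 h fast (n = 4) and fed controls for that time point (n = 4). The labels give neither age nor sex, and they do not say whether each library is a separate animal, how long the cold treatment lasted or whether animals were pooled. The p-values therefore measure the spread between libraries, which may be technical.

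Cholesterol in the brain is made on site, because the cholesterol of the blood does not cross the blood-brain barrier, and much of it goes into myelin and cell membranes. The transcription factors encoded by Srebf2 and Srebf1 switch on the sterol and fatty acid genes when membrane sterol is low. Insig1 holds their precursors in the endoplasmic reticulum when sterol is ample.

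The depth of the libraries ranged from 9.35 to 64.3 M (mega) counts, and the 1-week libraries, at 46.9 to 64.3 M, were deeper than the 12 h libraries, at 26.1 to 34.1 M, and the 1 h libraries, at 28.5 to 33.1 M. Depth and refeeding time cannot be told apart there. Levels are given as CPM (counts per M counts of the library, on the scale of the fit) within a table, and they are not compared between tables or between genes, since the length counted for each gene is unknown. Markers of hypothalamic neurons such as Agrp, Pomc and Hcrt were above 0 in every library, and their summed level was between 146 and 1052 CPM. Markers of striatum, a neighbouring region, summed to 308 to 368 CPM in the 72 h-fasted libraries, to 380 to 567 CPM in the cold-treated fasted ones and to 475 to 745 CPM in the fed ones. In the refeeding table they ranged from 367 to 1043 CPM at 1 week, 979 to 1270 CPM at 12 h and 468 to 1103 CPM at 1 h. Fed library 2 stood apart with liver markers at 805 CPM, skeletal muscle markers at 1104 CPM and adipocyte markers at 37.1 CPM. The adipocyte sum was between 0.455 and 4.32 CPM in the other libraries of its table. Liver markers were also at 119 CPM in fed library 3 and at 42.3, 143 and 53.4 CPM in the 24 h-fasted libraries. They were at 2.01 CPM in fed library 1 and at most 1.87 CPM in both 72 h-fasted groups. Fed library 3 also held skeletal muscle markers at 15.2 CPM and the highest choroid plexus sum of its table, 224 CPM. In bulk tissue, fewer cells of a type and less RNA per cell cannot be told apart.

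A pair of genes could not be read. Mvd, which makes isopentenyl diphosphate, was at 0 counts in every library of the fasting and refeeding tables, and it was between 12.75 and 20.04 CPM in the 1-month table. Its whole span (100%) is overlapped by another annotated gene, Gm20388, but 0% of its exon bases are overlapped by exons of another gene. The source of the 0 counts was not tested. Fdps, which makes farnesyl diphosphate, was between 0 and 1.09 CPM in all 30 libraries. Other genes overlap 89.7% of its span, and their exons overlap 26.7% of its exon bases. It passed the low-count filter in the first 2 tables only, so 33 of 34 genes were tested in each table, and its changes are not read here. Overlap by other genes covered 49.4% of the span of Acss2, 44.1% of Lss and 34.6% of Hmgcs1. Of their exon bases, exons of other genes covered 9.12%, 3.53% and 12.1%. Apart from Fdps, that exon share was highest for Fdft1, at 18.3%, with the gene Ctsb. The library kit marks strand, but no source used here states the strand setting of the counting, so reads of overlapping genes may be mixed.

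The promoter sequences of 3 of these genes are shown because they carry the letters TCACNCCA, the core of a sterol regulatory element as searched here. RefSeq promoter windows on GRCm38.p6 matched 27 of the 34 genes, by symbol, in 33 windows; Fdps, Fdft1, Sqle, Stard4, Scd1, Scd2 and Fads1 were not matched. In the 250 bases before the annotated start, searched on both strands, TCACNCCA was present in 3 of 33 windows (9.09%), against 3.67% of all 32851 windows. The letters CCAAT, the box bound by nuclear factor Y, were present in 24 of 33 (72.7%), against 33.9% of all windows. The E-box CACGTG was present in 5 of 33 (15.2%), against 6.02%. These matches are a description of the windows and say nothing of binding. The 3 windows follow, 5′ to 3′ in the direction of the gene, with TCACNCCA and CCAAT matches on either strand in capitals.
Msmo1, chr8:64733579-64733828, minus strand: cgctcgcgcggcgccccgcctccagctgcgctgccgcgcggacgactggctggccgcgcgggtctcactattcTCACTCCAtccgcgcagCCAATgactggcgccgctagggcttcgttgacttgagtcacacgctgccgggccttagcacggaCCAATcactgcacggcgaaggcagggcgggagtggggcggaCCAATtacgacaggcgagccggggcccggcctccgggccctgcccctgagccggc
Hmgcs1, chr13:119690101-119690350, plus strand: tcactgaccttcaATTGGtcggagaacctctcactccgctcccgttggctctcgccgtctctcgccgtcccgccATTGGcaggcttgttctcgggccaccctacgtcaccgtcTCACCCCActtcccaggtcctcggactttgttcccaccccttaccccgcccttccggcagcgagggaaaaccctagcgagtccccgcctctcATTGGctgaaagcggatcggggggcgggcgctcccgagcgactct
Srebf2, chr15:82147019-82147268, plus strand: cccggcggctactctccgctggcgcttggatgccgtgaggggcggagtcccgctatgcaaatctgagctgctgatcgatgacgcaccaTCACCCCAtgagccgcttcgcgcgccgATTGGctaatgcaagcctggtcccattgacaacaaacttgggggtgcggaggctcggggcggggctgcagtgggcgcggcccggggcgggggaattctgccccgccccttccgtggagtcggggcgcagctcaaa
The core began 177 bases before the start in Msmo1, 137 in Hmgcs1 and 162 in Srebf2. Msmo1 and Hmgcs1 each held 3 CCAAT matches and Srebf2 held 1. None of these overlapped the core.

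A fast of 24 h moved none of the genes past the test. At an adjusted p below 0.05, 0 of 33 genes were called by edgeR's quasi-likelihood test, against 0.0343% of all genes tested (0.0245% higher, 0.0098% lower), and DESeq2 also called 0. At an unadjusted p below 0.05 there were 5: Thrsp, Scd1, Fads1 and Stard4, with negative log2 fold changes, and Mvk, the mevalonate kinase, with a positive one. Of all 20408 genes, 2118 were at an unadjusted p below 0.05. The median log2 fold change of the 33 genes over fed libraries was -0.18, beside 0.00 over all genes. Thrsp, a regulator of lipid synthesis, was at 5.45, 7.83 and 5.63 CPM in 24 h-fasted libraries, against 7.40, 18.2 and 7.86 CPM in fed libraries. The highest fed value is that of library 2, which also held adipocyte, liver and muscle markers. Of the sterol enzymes that did not pass, Hmgcs1, the enzyme that makes hydroxymethylglutaryl-CoA, had a log2 fold change of -0.32 (SE 0.17), Mvk of 0.30 (SE 0.11) and Ebp, a sterol isomerase, of -0.30 (SE 0.16). Of the control genes, Stard4, a sterol carrier, had -0.31 (SE 0.12), Insig1 -0.18 (SE 0.16) and Srebf2 -0.08 (SE 0.10). Of the fatty acid genes, Thrsp had -0.82 (SE 0.31), Scd1, a stearoyl-CoA desaturase, -0.46 (SE 0.21) and Acacb, an acetyl-CoA carboxylase, -0.33 (SE 0.25).

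After 72 h without food, 6 of 33 genes were lower than in fed mice and 0 were higher, while 15.1% of all genes were called, 7.78% lower and 7.28% higher. The 6 were 3 sterol enzymes, 0 control genes and 3 fatty acid genes. The median log2 fold change was -0.13 over 16 sterol enzymes and -0.29 over 13 fatty acid genes, beside 0.01 over all genes. Without Fdps the sterol median was -0.20.

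Fdft1, the squalene synthase that commits farnesyl units to sterols, was at 72.9, 74.3 and 62.9 CPM in 72 h-fasted libraries, against 101, 86.9 and 86.9 CPM in fed libraries. All 3 fasted libraries were below all 3 fed ones, with a log2 fold change of -0.39 (SE 0.10, edgeR adjusted p = 0.0265). Ebp was at 8.15, 7.75 and 7.71 CPM in 72 h-fasted libraries, against 12.2, 12.98 and 11.4 CPM in fed libraries. The groups did not overlap, and its log2 fold change was -0.63 (SE 0.16, edgeR adjusted p = 0.0266). Sc5d, a desaturase near the end of the sterol pathway, averaged 74.0 ± 7.29 CPM in 72 h-fasted libraries and 99.5 ± 9.86 CPM in fed libraries (SD, n = 3 each), a log2 fold change of -0.43 (SE 0.13, edgeR adjusted p = 0.0432).

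Fads1, the delta-5 desaturase of polyunsaturated fatty acids, was at 155, 157 and 151 CPM in 72 h-fasted libraries, against 215, 215 and 182 CPM in fed libraries. Its log2 fold change was -0.41 (SE 0.11, edgeR adjusted p = 0.0319) and the groups did not overlap. Elovl5, which elongates polyunsaturated fatty acids, averaged 85.1 ± 8.16 CPM in 72 h-fasted libraries and 108 ± 8.52 CPM in fed libraries (SD, n = 3 each), with a log2 fold change of -0.34 (SE 0.10, edgeR adjusted p = 0.0411). Thrsp was at 5.04, 5.10 and 5.27 CPM in 72 h-fasted libraries, against 7.40, 18.2 and 7.86 CPM in fed libraries, a log2 fold change of -1.12 (SE 0.31, edgeR adjusted p = 0.0330). Without fed library 2 the log2 fold change of Thrsp was -0.57 and it was no longer called (edgeR adjusted p = 0.137).

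Genes that missed the threshold included Msmo1, which removes methyl groups from sterols, with a log2 fold change of -0.50 (SE 0.17, edgeR adjusted p = 0.059), Hmgcs1, with -0.40 (SE 0.17), and Cyp51, the lanosterol demethylase, with -0.40 (SE 0.13). Stard4 had -0.37 (SE 0.12), Srebf1 0.24 (SE 0.12) and Srebf2 -0.20 (SE 0.10). Acacb had -0.52 (SE 0.25), Scd1 -0.47 (SE 0.21) and Scd2, the main brain stearoyl-CoA desaturase in mice, -0.31 (SE 0.14).

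None of these 6 calls was kept without every single library in turn. Leaving out fed library 2 gave 0 calls, as did leaving out 72 h-fasted library 2 or 3. Leaving out fed library 1 or 72 h-fasted library 1 gave 1 call, and leaving out fed library 3 gave 15, all lower. With 1 surrogate variable in the fit there were 0. Summed oligodendrocyte markers were at 1839, 1951 and 1917 CPM in 72 h-fasted libraries, against 2962, 2448 and 1952 CPM in fed libraries. By edgeR 0 of these 8 marker genes were called, and their median log2 fold change was -0.03. The astrocyte sum was between 974 and 1071 CPM in 72 h-fasted libraries, against 1154 to 1479 CPM in fed libraries. Of 6 astrocyte genes 1 was called lower. Sums of several other marker lists also did not overlap. Those of striatum are given above, and 4 of 6 striatum genes were called lower. Liver markers summed to 1.48 to 1.58 CPM in 72 h-fasted libraries, against 2.01 to 805 CPM in fed ones, 5 of 7 called lower. Skeletal muscle markers summed to 1.31 to 1.84 CPM in 72 h-fasted libraries, against 2.2 to 1104 CPM in fed ones. All 4 tested were called lower. The pituitary sum, at most 0.487 CPM in 72 h-fasted libraries, was at least 0.512 CPM in fed ones. Endothelium markers summed to 121 to 129.6 CPM in 72 h-fasted libraries, against 181 to 207 CPM in fed libraries, with 4 of 5 genes called lower. Oligodendrocyte precursor markers summed to 88.1 to 98.2 CPM in 72 h-fasted libraries, against 115.5 to 133 CPM in fed libraries, with 2 of 4 called lower. Choroid plexus markers summed to 21.1 to 34.1 CPM in 72 h-fasted libraries, against 48.6 to 224 CPM in fed libraries, with 4 of 5 called lower. The part of these cell types and tissues in the result was not tested. Between 72 h and 24 h of fasting 0 of 33 genes were called by edgeR and by DESeq2, against 1.63% of all genes by edgeR (0.568% higher, 1.06% lower). At an unadjusted p below 0.05 were 2 of the 33 and 4799 of all 20408 genes. Ebp had a log2 fold change of -0.33 (SE 0.16), Msmo1 of -0.29 (SE 0.17) and Hsd17b7, a sterol ketoreductase, of 0.28 (SE 0.15). Srebf1 had 0.19 (SE 0.12), Insig1 0.17 (SE 0.16) and Srebf2 -0.13 (SE 0.10), and Thrsp had -0.29 (SE 0.31), Me1, a source of NADPH, 0.20 (SE 0.08) and Acacb -0.18 (SE 0.26).

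**Figure D1:**
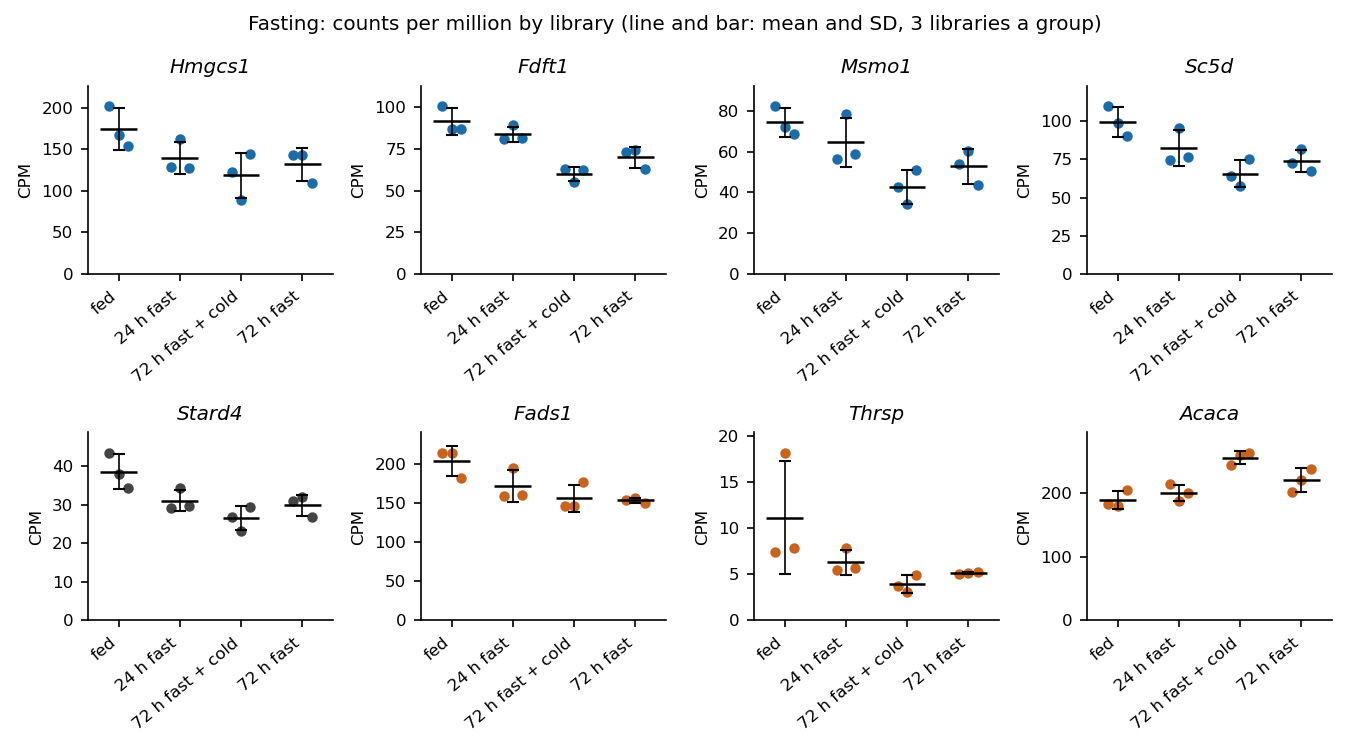
Level of 8 of the genes in each library of the fasting table, in CPM, by group; points are libraries, lines are means and bars are SD (n = 3 each). Fdft1, Sc5d and Stard4 lie lower in both 72 h-fasted groups than in fed libraries, Acaca lies higher in the cold-treated fasted group than in fed libraries, and 1 fed library holds the highest Thrsp value, 18.2.

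The combination of a 72 h fast with cold treatment gave the most lower calls among the fasting comparisons. Relative to fed mice, 13 of 33 genes were lower and 1 was higher, while 17.9% of all genes were called, 9.16% lower and 8.78% higher. Lower were 8 of 16 sterol enzymes tested, 2 of 4 control and transport genes and 3 of 13 fatty acid genes. The median log2 fold change was -0.40 over the sterol enzymes and -0.27 over the fatty acid genes, beside -0.03 over all genes, and without Fdps the sterol median was -0.47.

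Msmo1 was at 42.7, 34.2 and 51.0 CPM in cold-treated fasted libraries, against 82.3, 71.8 and 68.8 CPM in fed libraries. Every cold-treated fasted library was below every fed one, and the log2 fold change was -0.80 (SE 0.17, edgeR adjusted p = 0.0103). Fdft1 was at 62.7, 55.1 and 62.5 CPM in cold-treated fasted libraries, against 101, 86.9 and 86.9 CPM in fed libraries, a log2 fold change of -0.61 (SE 0.10, edgeR adjusted p = 0.00446). Msmo1 and Fdft1 were the 2 of the 14 calls that were kept without any single library.

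Sc5d was at 64.4, 57.3 and 75.3 CPM in cold-treated fasted libraries, against 110, 98.7 and 90.1 CPM in fed libraries (log2 fold change -0.60, SE 0.13, edgeR adjusted p = 0.0119). Ebp averaged 7.51 ± 1.67 CPM in cold-treated fasted libraries and 12.2 ± 0.781 CPM in fed libraries (SD, n = 3 each), a log2 fold change of -0.70 (SE 0.16, edgeR adjusted p = 0.0157). Neither gene's groups overlapped. Both calls were lost without cold-treated library 1, and that of Ebp also without fed library 2. The other sterol enzymes that fell were Idi1, the isopentenyl diphosphate isomerase, by 0.75 on the log2 scale, Cyp51 by 0.57, Hmgcs1 by 0.56 and Sqle, the squalene epoxidase, by 0.47. For Hmgcs1 the cold-treated fasted libraries were at 122, 89.3 and 144 CPM, against 202, 167 and 153 CPM in fed libraries. The highest cold-treated library lay just below the lowest fed one.

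Stard4 was at 26.8, 23.2 and 29.4 CPM in cold-treated fasted libraries, against 43.5, 37.9 and 34.3 CPM in fed libraries, with a log2 fold change of -0.54 (SE 0.12, edgeR adjusted p = 0.0134). Srebf2 averaged 142 ± 12.97 CPM in cold-treated fasted libraries and 180 ± 10.7 CPM in fed libraries (SD, n = 3 each), a log2 fold change of -0.34. In the same comparison Insig1 had -0.28 (SE 0.16) and Srebf1 0.16 (SE 0.12), and neither passed the test.

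Among the fatty acid genes, Thrsp was at 3.70, 3.11 and 4.96 CPM in cold-treated fasted libraries, against 7.40, 18.2 and 7.86 CPM in fed libraries (log2 fold change -1.50, SE 0.31, edgeR adjusted p = 0.0103). Without fed library 2 it was still called, at -0.96 (edgeR adjusted p = 0.0313), and without cold-treated library 1 it was not, at -1.45 (edgeR adjusted p = 0.0527). With 1 surrogate variable it was at -0.43 and not called. Fads1 fell by 0.38 and Elovl5 by 0.36 on the log2 scale.

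Acaca, the acetyl-CoA carboxylase that makes malonyl-CoA for fatty acid synthesis, went the other way. It was at 244, 261 and 264 CPM in cold-treated fasted libraries, against 184, 179 and 205 CPM in fed libraries. The groups did not overlap and the log2 fold change was 0.44 (SE 0.09, edgeR adjusted p = 0.0118), a call lost without fed library 2. Acaca spans 271980 bases, and of the 2750 genes over 100 kb in this comparison 22.2% were called higher, beside 8.78% of all genes. Across all genes the Spearman correlation of the log2 fold change with gene span was 0.26, and across 32 of the genes described here, without Fdps, it was 0.48. The genes of 1 comparison share its libraries, so these correlations are descriptions.

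Fatty acid genes that missed the threshold were Scd1 at -0.60 (SE 0.21, edgeR adjusted p = 0.0654), Fads2, the delta-6 desaturase, at -0.31 (SE 0.11) and Fasn, the fatty acid synthase, at -0.31 (SE 0.13). Lss, the lanosterol synthase, had -0.33 (SE 0.15), Nsdhl, a sterol dehydrogenase, -0.27 (SE 0.13) and Dhcr7, which catalyses the last step to cholesterol, -0.25 (SE 0.08).

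Single libraries moved the number of calls. Leaving out cold-treated library 1 gave 3 calls and leaving out cold-treated library 2 gave 8. Leaving out fed library 1 or fed library 2 gave 6 each, and leaving out fed library 3 gave 20, which is within 1.5 times. With 1 surrogate variable in the fit there were 0 calls. Summed oligodendrocyte markers were at 1499, 1662 and 2621 CPM in cold-treated fasted libraries, against 2962, 2448 and 1952 CPM in fed libraries, and 2 of the 8 marker genes were called lower. The astrocyte sum was between 1076 and 1166 CPM in cold-treated fasted libraries, against 1154 to 1479 CPM in fed libraries. Of 6 astrocyte genes 1 was called higher and 1 lower. Those 2 ranges overlapped between the groups, and the next 3 did not. Endothelium markers summed to 108 to 127 CPM in cold-treated fasted libraries, against 181 to 207 CPM in fed libraries, with 4 of 5 genes called lower. Oligodendrocyte precursor markers summed to 90.3 to 104 CPM in cold-treated fasted libraries, against 115.5 to 133 CPM in fed libraries, with 0 of 4 called by edgeR. Choroid plexus markers summed to 20.9 to 27.8 CPM in cold-treated fasted libraries, against 48.6 to 224 CPM in fed libraries, with 3 of 5 called lower. Striatum sums overlapped, and 4 of 6 striatum genes were called lower. Liver markers summed to 0.795 to 1.87 CPM in cold-treated fasted libraries, against 2.01 to 805 CPM in fed ones, 5 of 7 called lower. Skeletal muscle markers summed to 0.795 to 1.08 CPM in cold-treated fasted libraries, against 2.2 to 1104 CPM in fed ones. All 4 tested were called lower. The part of these markers in the result was not tested.

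Set against the 72 h fast without cold, the cold-treated libraries had 0 of 33 genes called by edgeR, among 0 of all 20408 genes (0%), with 6 of the 33 and 1296 of all genes at an unadjusted p below 0.05. DESeq2 called 2 of the 33 lower, Lss and Dhcr7, and its calls over all genes are given below with the processing alternatives. All 15 sterol enzymes tested other than Fdps had a negative log2 fold change (0% positive), with a median of -0.22 (-0.24 with Fdps). Of the fatty acid genes 46.2% were positive, with a median of -0.02, beside 49.3% and a median of -0.003 over all genes. The genes share the same libraries, so their directions are not independent. Sterol enzymes summed to 555, 463 and 632 CPM in cold-treated fasted libraries, against 685, 693.5 and 563 CPM in 72 h-fasted libraries. Those sums overlapped. Lss was at 7.49, 7.07 and 7.06 CPM in cold-treated fasted libraries, against 11.5, 11.6 and 10.5 CPM in 72 h-fasted libraries, a log2 fold change of -0.64 (SE 0.15, edgeR adjusted p = 0.37). The groups did not overlap, and fed libraries were at 9.03, 7.69 and 10.5 CPM. Idi1 had -0.45 (SE 0.21) and Dhcr7 -0.37 (SE 0.08). Insig1 had -0.26 (SE 0.16), Stard4 -0.17 (SE 0.12) and Srebf2 -0.13 (SE 0.10). Thrsp had -0.39 (SE 0.31), Acacb 0.33 (SE 0.25) and Acaca 0.22 (SE 0.09). The cold-treated and the 72 h-fasted group share the fed group as their control, so their comparisons with it are not independent.

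Early in refeeding, 5 of 33 genes were lower and 1 was higher at 12 h than at 1 h, while 14.2% of all genes were called, 7.14% lower and 7.08% higher. One of the 5 was Fdps, leaving 4. The median log2 fold change was -0.05 over the sterol enzymes and -0.05 over the fatty acid genes, beside 0.00 over all genes.

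Insig1 was at 58.8, 54.9 and 49.1 CPM at 12 h, against 69.9, 80.0 and 66.1 CPM at 1 h. Every 12 h library was below every 1 h library, with a log2 fold change of -0.41 (SE 0.09, edgeR adjusted p = 0.0113). Srebf1 was at 92.2, 97.1 and 81.5 CPM at 12 h, against 110, 117 and 105 CPM at 1 h, a log2 fold change of -0.29 (SE 0.09, edgeR adjusted p = 0.0364). Lss averaged 11.4 ± 0.924 CPM at 12 h and 15.4 ± 2.03 CPM at 1 h (SD, n = 3 each), a log2 fold change of -0.44 (SE 0.12, edgeR adjusted p = 0.0216). Acaca averaged 199 ± 7.30 CPM at 12 h and 229 ± 8.33 CPM at 1 h (log2 fold change -0.20, SE 0.06, edgeR adjusted p = 0.0468). Elovl5 was the gene that rose, to 88.5 ± 3.00 CPM at 12 h, against 77.4 ± 3.33 CPM at 1 h (SD, n = 3 each), a log2 fold change of 0.19 (SE 0.06, edgeR adjusted p = 0.0414). None of these calls was kept without every single library in turn, and leaving out 12 h library 3 or 1 h library 2 gave 0 calls, 1 h library 1 gave 2 and 12 h library 2 gave 3. Summed oligodendrocyte markers were between 1433 and 1686 CPM at 12 h, against 1441 to 1649 CPM at 1 h, with 3 of 8 genes called higher and 2 lower. Astrocyte markers were between 816 and 949 CPM at 12 h, against 947 to 1058 CPM at 1 h, with 2 of 6 called lower, and their part in the result was not tested.

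Genes that did not pass included Mvk at -0.32 (SE 0.12), Hsd17b7 at -0.25 (SE 0.10) and Sqle at -0.15 (SE 0.09). Stard4 had -0.07 (SE 0.10) and Srebf2 0.01 (SE 0.07). Acacb had -0.22 (SE 0.11), Elovl6, which elongates saturated fatty acids, 0.21 (SE 0.07) and Thrsp 0.21 (SE 0.17).

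**Figure D2:**
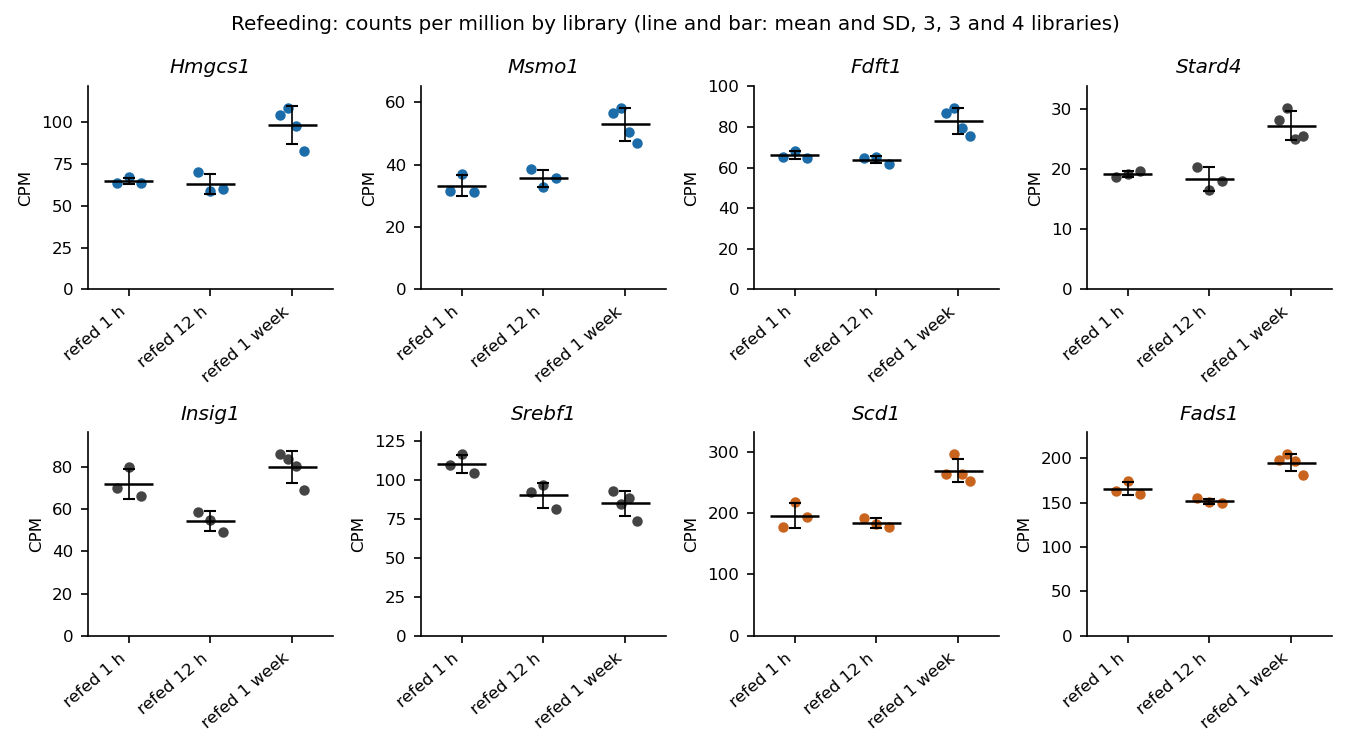
Level of 8 of the genes in each library of the refeeding table, in CPM, by refeeding time; points are libraries, lines are means and bars are SD (n = 3 at 1 h, 3 at 12 h and 4 at 1 week). In the Hmgcs1 panel the 1-week libraries, between 83.0 and 109, lie above all 12 h libraries, and in the Srebf1 panel the 1 h libraries are the highest.

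At 1 week of refeeding, 17 of 33 genes were higher than at 12 h and 0 were lower, while 11.6% of all genes were called, 6.56% higher and 5% lower. Higher were 9 of 16 sterol enzymes, 2 of 4 control and transport genes and 6 of 13 fatty acid genes. All 15 sterol enzymes tested other than Fdps had a positive log2 fold change (100%), and so had 76.9% of the fatty acid genes, beside 47.7% of all genes. The median was 0.34 over the sterol enzymes and 0.21 over the fatty acid genes, beside -0.01 over all genes, and without Fdps the sterol median was 0.30.

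Hmgcs1 was at 104, 109, 97.8 and 83.0 CPM at 1 week, against 70.1, 58.8 and 60.3 CPM at 12 h. Every 1-week library was above every 12 h library, and the log2 fold change was 0.64 (SE 0.09, edgeR adjusted p = 0.000748). Msmo1 was at 56.6, 58.3, 50.5 and 46.8 CPM at 1 week, against 38.5, 32.8 and 35.6 CPM at 12 h. Its log2 fold change was 0.57 (SE 0.09, edgeR adjusted p = 0.00148) and its groups did not overlap. Fdft1 was at 87.1, 89.5, 79.5 and 75.7 CPM at 1 week, against 64.6, 65.2 and 61.8 CPM at 12 h (log2 fold change 0.38, SE 0.06, edgeR adjusted p = 0.00284). Sqle averaged 60.2 ± 5.25 CPM at 1 week (SD, n = 4) and 43.1 ± 1.75 CPM at 12 h (SD, n = 3), a log2 fold change of 0.48 (SE 0.08, edgeR adjusted p = 0.00293). The other sterol enzymes that rose were Ebp by 0.44, Idi1 by 0.40, Cyp51 by 0.39, Pmvk, the phosphomevalonate kinase, by 0.30 and Sc5d by 0.28, on the log2 scale. Leaving out a single library lost the Idi1 and Sc5d calls in 5 of 7 fits each, Pmvk in 3 and Ebp in 1. Sterol enzymes that did not pass included Lss at 0.27 (SE 0.11), Mvk at 0.24 (SE 0.11) and Tm7sf2, a sterol reductase, at 0.18 (SE 0.10).

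Stard4 was at 28.3, 30.2, 25.1 and 25.5 CPM at 1 week, against 20.4, 16.5 and 18.1 CPM at 12 h. Its log2 fold change was 0.57 (SE 0.09, edgeR adjusted p = 0.0016), with no overlap. Insig1, itself a target of the factors it holds back, was at 85.9, 83.9, 80.5 and 68.9 CPM at 1 week, against 58.8, 54.9 and 49.1 CPM at 12 h (log2 fold change 0.56, SE 0.09, edgeR adjusted p = 0.0019). The genes for the factors themselves did not pass the test, with -0.09 (SE 0.08) for Srebf1 and 0.04 (SE 0.06) for Srebf2.

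Scd1 was at 264, 296, 263 and 252 CPM at 1 week, against 192, 183 and 177 CPM at 12 h, a log2 fold change of 0.55 (SE 0.08, edgeR adjusted p = 0.000854). Fads1 was at 198, 204, 197 and 181 CPM at 1 week, against 155, 150.5 and 149.5 CPM at 12 h, a log2 fold change of 0.36 (SE 0.06, edgeR adjusted p = 0.00237). Both genes were higher in all 4 of the 1-week libraries than in any 12 h library. The others that rose were Acss2, which makes acetyl-CoA from acetate, by 0.33, Me1 by 0.32, Scd2 by 0.29 and Fads2 by 0.27 on the log2 scale. Thrsp had 0.21 (SE 0.16), Acly, which makes acetyl-CoA from citrate, 0.17 (SE 0.07) and Acaca 0.13 (SE 0.06), none past the test. Of the 6 calls, that of Scd2 was lost in 5 of 7 fits that left out a single library and that of Fads2 in 3 of 7.

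Calls of 9 of the 17 genes were kept without any single library: Hmgcs1, Fdft1, Sqle, Cyp51, Msmo1, Insig1, Stard4, Scd1 and Fads1. The number of calls was lowest, at 10, without 12 h library 3. With 1 surrogate variable in the fit it was 8. Markers of glia moved with the time point. Summed oligodendrocyte markers were between 1762 and 1903 CPM at 1 week, against 1433 to 1686 CPM at 12 h, with 4 of 8 genes called higher. Astrocyte markers were between 1035 and 1223 CPM at 1 week, against 816 to 949 CPM at 12 h, with 4 of 6 genes called higher. Neuron markers were between 2203 and 2474 CPM at 1 week, against 2474 to 2692 CPM at 12 h, with 0 of 4 tested genes called by edgeR; the neuron marker Tubb3 was at 0 in every library of this table and of the fasting table. Endothelium markers were between 56.6 and 65.9 CPM at 1 week, against 65.8 to 105 CPM at 12 h, with 1 of 5 called lower. The part of these cell types in the rise of the sterol and fatty acid genes was not tested. The Spearman correlation of the log2 fold change with gene span was -0.50 across 32 of the genes, without Fdps, and -0.12 across all genes.

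Against 1 h of refeeding, 18 of 33 genes were higher at 1 week and 2 were lower, while 26.9% of all genes were called, 13.5% higher and 13.5% lower. The 18 were 10 sterol enzymes, 1 control or transport gene and 7 fatty acid genes. The 2 that were lower were Srebf1 and Acacb. The median log2 fold change was 0.25 over the sterol enzymes and 0.24 over the fatty acid genes, beside 0.00 over all genes. This comparison shares the 1-week libraries with the one before, so it is not independent of it.

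Msmo1 averaged 53.1 ± 5.32 CPM at 1 week (SD, n = 4) and 33.3 ± 3.27 CPM at 1 h (SD, n = 3), a log2 fold change of 0.67 (SE 0.09, edgeR adjusted p = 0.000117). Hmgcs1 had 0.60 (SE 0.09, edgeR adjusted p = 0.000228), Stard4 0.50 (SE 0.09, edgeR adjusted p = 0.000938), Scd1 0.46 (SE 0.08, edgeR adjusted p = 0.000677) and Cyp51 0.42 (SE 0.07, edgeR adjusted p = 0.000935). The other genes that rose were Idi1 by 0.47, Ebp by 0.42, Fdft1 by 0.33, Sqle by 0.33, Nsdhl by 0.27, Dhcr7 by 0.23 and Sc5d by 0.22, and Me1 by 0.33, Scd2 by 0.31, Fads2 by 0.29, Acss2 by 0.28, Fads1 by 0.24 and Elovl5 by 0.16, on the log2 scale. The Sc5d groups overlapped. Insig1, at 0.15 (SE 0.09), was not called against 1 h.

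Srebf1 was at 92.9, 85.0, 88.3 and 74.0 CPM at 1 week, against 110, 117 and 105 CPM at 1 h. All 4 of the 1-week libraries were below the 1 h libraries, with a log2 fold change of -0.38 (SE 0.08, edgeR adjusted p = 0.00328), and the call was kept without any single library. Acacb was at 10.8, 11.6, 9.09 and 9.999 CPM at 1 week, against 11.8, 12.6 and 14.4 CPM at 1 h, a log2 fold change of -0.32 (SE 0.10, edgeR adjusted p = 0.0301). Genes that did not pass included Thrsp at 0.42 (SE 0.16), Tm7sf2 at 0.20 (SE 0.10), Pmvk at 0.19 (SE 0.08), Lss at -0.17 (SE 0.10), Elovl6 at 0.17 (SE 0.07), Fasn at -0.13 (SE 0.07) and Srebf2 at 0.06 (SE 0.06). Calls of 10 of the 20 genes were kept without any single library, and the number of calls was lowest, at 11, without 1 h library 3. Summed oligodendrocyte markers were between 1762 and 1903 CPM at 1 week, against 1441 to 1649 CPM at 1 h, with 6 of 8 called higher and 2 lower. Astrocyte markers were between 1035 and 1223 CPM at 1 week, against 947 to 1058 CPM at 1 h, with 3 of 6 called higher. Endothelium markers were between 56.6 and 65.9 CPM at 1 week, against 69.6 to 105 CPM at 1 h, with 1 of 5 called lower. The part of these cell types in the result was not tested. The Spearman correlation with gene span was -0.38 across 32 of the genes, without Fdps, and 0.07 across all genes.

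The lower calls of the cold-treated fast and the higher calls of the 1-week refeeding fell on many of the same genes. These comparisons have no library in common. Of the 13 genes lower in cold-treated fasted over fed libraries, 10 were higher at 1 week than at 12 h, which is 76.9% of the first list and 58.8% of the 17 in the second. The 10 were Hmgcs1, Idi1, Fdft1, Sqle, Cyp51, Msmo1, Ebp, Sc5d, Stard4 and Fads1. Over all 19516 genes tested in both comparisons, 174 were so called, 9.68% of 1798 and 13.4% of 1295. Of the 32 genes described here that were tested in both, without Fdps, 17 were higher at 1 week over 12 h. A sizeable overlap would therefore be likely for any 13 of them. Srebf2, Elovl5 and Thrsp were lower in the cold-treated fast and not called higher at 1 week over 12 h. Insig1, Pmvk, Acss2, Scd1, Scd2, Fads2 and Me1 were higher at 1 week over 12 h and not called in the cold-treated fast. At 1 week over 1 h, 11 of the 13 were higher (84.6%), beside 449 of 1798 (25.0%) over all genes. Of the 32 genes, 18 were higher there. Of 6 genes lower after 72 h without cold, 4 were higher at 1 week over 12 h and 5 over 1 h. Over all genes the shares were 13.8% and 23.65% of 1518. These pairs share libraries with the first, so they are not independent of it.

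**Figure D3:**
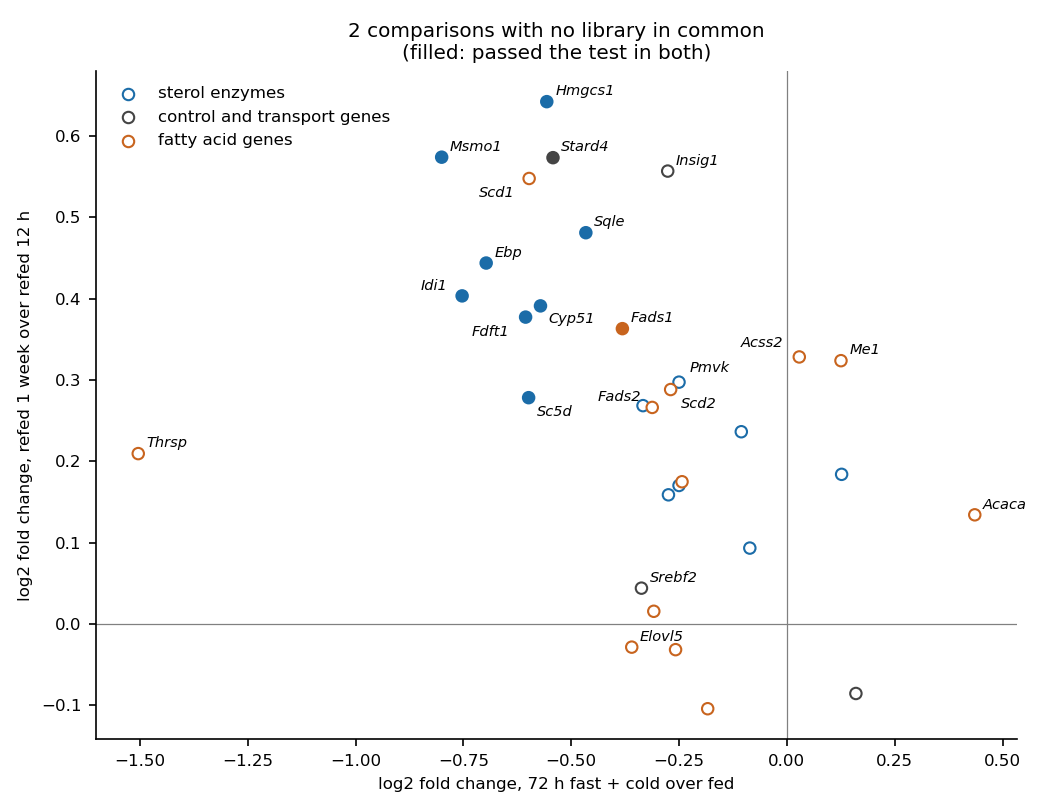
Log2 fold change of 32 genes in the cold-treated 72 h fast over fed libraries (x axis) and at 1 week over 12 h of refeeding (y axis); each point is a gene, coloured by branch, and filled where it passed the test in both. The 10 filled points lie at the upper left, from Msmo1 at -0.80 and 0.57 to Fads1 at -0.38 and 0.36.

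One month after the fast, 1 of 33 genes differed from the fed controls, while 10.1% of all genes were called, 6.37% higher and 3.76% lower. That gene was Elovl5, at 79.2, 87.4, 83.1 and 79.7 CPM in mice refed for 1 month, against 60.7, 61.8, 56.4 and 73.8 CPM in fed controls. Every refed library was above every control, with a log2 fold change of 0.38 (SE 0.08, edgeR adjusted p = 0.00846), and the call was kept without any single library. With 1 surrogate variable, or with a replicate block, it was not called. Oligodendrocyte markers summed to 2326, 2738, 2541 and 1715 CPM in the 1-month refed libraries, against 1793, 1787, 1333 and 1747 CPM in the fed controls, with 2 of 8 genes called higher, as were 2 of 4 markers of oligodendrocyte precursors. Endothelium markers summed to 223 to 282 CPM in 1-month refed libraries, against 178 to 223 CPM in fed controls, with 3 of 5 called higher. The part of these cell types in the Elovl5 difference was not tested.

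The median log2 fold change at 1 month was 0.09 over the sterol enzymes, -0.07 over the control genes and 0.05 over the fatty acid genes, beside 0.00 over all genes. Msmo1 was at 72.1, 77.0, 74.0 and 73.6 CPM in 1-month refed libraries, against 44.3, 64.9, 65.9 and 71.8 CPM in fed controls, a log2 fold change of 0.26 (SE 0.11, edgeR adjusted p = 0.146). Srebf2 was at 343, 348, 349 and 323 CPM in 1-month refed libraries, against 405, 418, 367 and 349 CPM in fed controls, a log2 fold change of -0.18 (SE 0.07, edgeR adjusted p = 0.121). Neither passed the test. Pmvk had -0.26 (SE 0.10) and Ebp 0.24 (SE 0.12). Stard4 had -0.18 (SE 0.13), Insig1 0.07 (SE 0.09), Fasn -0.19 (SE 0.08), Thrsp -0.17 (SE 0.15) and Scd1 0.15 (SE 0.07). Without fed control library 5 there were 6 calls, 2 higher and 4 lower.

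**Figure D4:**
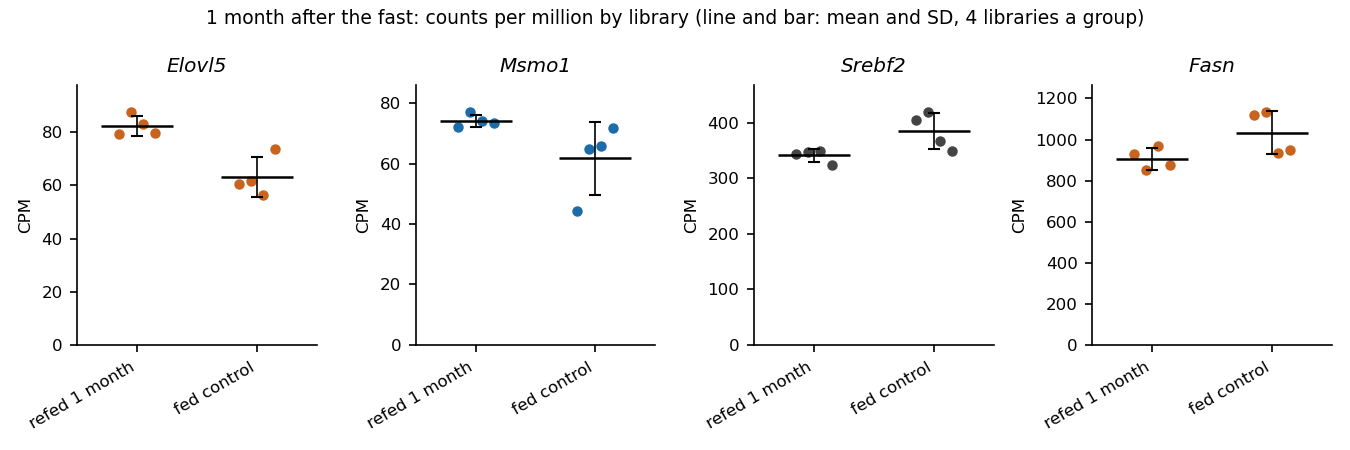
Level of Elovl5, Msmo1, Srebf2 and Fasn in each library of the 1-month table, in CPM; points are libraries, lines are means and bars are SD (n = 4 each). The Elovl5 level lies between 79.2 and 87.4 in refed libraries, above the fed controls, and the other 3 genes did not pass the test.

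Over the 9 comparisons, Elovl5 was called most often, in 5, with 3 higher and 2 lower. Most of these calls depended on single libraries: leaving 1 out lost the call in 6 of 6 fits at 12 h over 1 h, in 6 of 7 at 1 week over 1 h, in 5 of 6 for 72 h-fasted over fed and in 3 of 6 for cold-treated fasted over fed. The 1-month call was lost in 0 of 8. Fdft1, Ebp, Sc5d and Fads1 were called in 4 each, with 2 lower in fasting comparisons and 2 higher at 1 week of refeeding. Of the 16 sterol enzymes other than Fdps, 4 were called in no comparison: Mvk, Mvd, Tm7sf2 and Hsd17b7, of which Mvd was tested only at 1 month. Of the 13 fatty acid genes, 3 were called in none: Fasn, Acly and Elovl6. Every control and transport gene was called at least once, with opposite directions for Srebf1 and Stard4 at 1 week over 1 h.

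**Figure D5:**
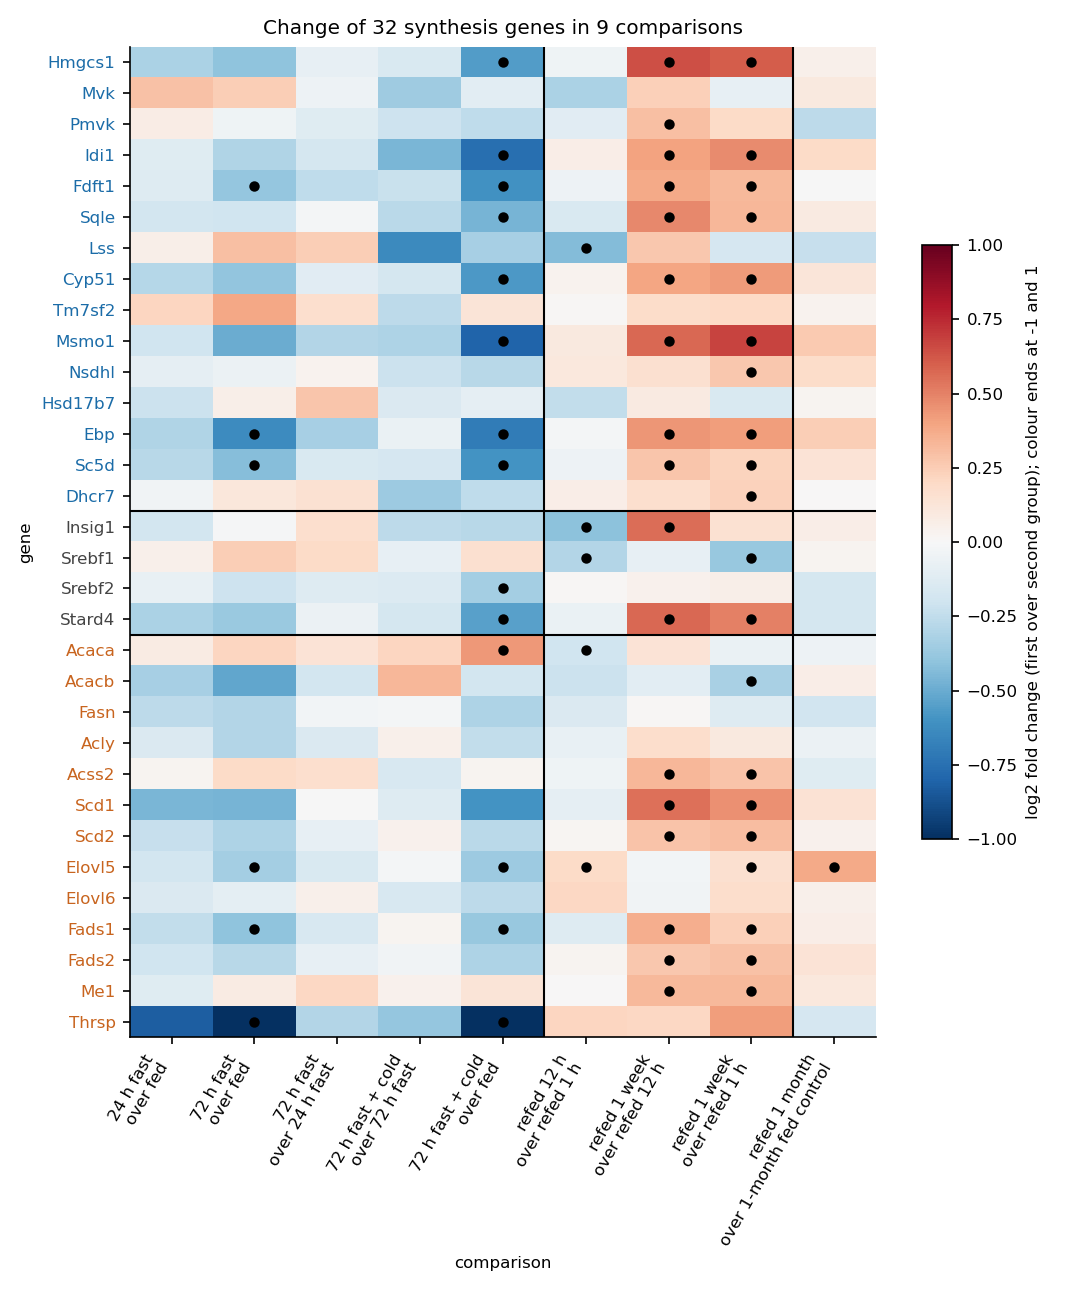
Log2 fold change of 32 genes (rows; sterol enzymes, control and transport genes and fatty acid genes from top to bottom) in the 9 comparisons (columns), with blue for lower and red for higher in the first-named group; black dots mark an edgeR adjusted p below 0.05. Dots gather in the cold-treated fast over fed column, with 14, and in both 1-week columns, with 17 and 20; Mvd and Fdps are not drawn.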

How the data were processed

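The authors deposited 3 tables of raw counts per gene; per the submitters' processing notes, reads were handled with HISAT2, featureCounts and edgeR on mm10, and no source used here states versions, strand setting or read filters. The authors' own comparison tables were not used, and 2 count columns that match no labelled sample were left out. From the counts, each table was fitted on its own with all its groups: genes were filtered with filterByExpr, scaled by TMM and tested with edgeR 4.0.16 (robust quasi-likelihood F test, group as the only term) in R 4.3.3, with Benjamini-Hochberg adjustment over all genes tested, 20408 in the fasting, 19932 in the refeeding and 14867 in the 1-month table. A gene was called at an adjusted p below 0.05. SE is the log2 fold change divided by the square root of F. CPM are counts per M counts of the TMM-scaled library size. Alternatives were RLE scaling, no low-count filter, DESeq2 1.42.0, a replicate block, 1 surrogate variable from sva 3.50.0, and leaving out each library. The test was tried first on simulated counts with known changes. Part of these changes were missed in every table, most in the fasting table. The limit set for recovering them was lowered after that run. Replicate libraries differed by more than counting noise in all 36 pairs, with a chi-square per degree of freedom of at least 3.19.

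In each comparison the called genes are named, with full statistics for those of smallest adjusted p, and up to 3 of each branch that were not called with the largest absolute log2 fold change, leaving out Fdps. The genes, the lists of other pathway genes and the marker lists were chosen with earlier results of these data known. Same-numbered libraries of compared groups had correlated deviations over 0.1 in no comparison for every pair (range -0.23 to 0.33), so the numbers were not taken as pairs. Gene positions and overlaps are from GENCODE M21, and promoter windows from RefSeq on GRCm38.p6.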

Additional observations from a re-analysis of the deposited data

Results flagged for a closer look

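For each gene tested, the 3 groups of 4 libraries (refed 1 week, refed 1 month and the fed controls of that time) were searched for a library far from the others, 99 groups in all. There were 6, all in the 1-month table, and chance gives about 1 in 20. Ebp was low in refed library 5, at 13.8 CPM, against 17.2 to 17.8 CPM in the other refed libraries. Acly was high in refed library 2, at 325 CPM, against 305 to 308 CPM, and Elovl6 in refed library 4, at 26.1 CPM, against 22.2 to 22.7 CPM. Among the fed controls, library 3 was high for both stearoyl-CoA desaturases, with Scd1 at 235 CPM, against 193 to 199 CPM, and Scd2 at 1445 CPM, against 1243 to 1274 CPM. Control library 2 was high for Acacb, at 29.0 CPM, against 22.7 to 23.1 CPM. None of these 6 genes was called at 1 month.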

How the results depend on the processing

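The number of genes called in each comparison was recomputed under every alternative. In 72 h-fasted over fed libraries it was 6 and became 0 with 1 surrogate variable, and leaving out single libraries gave 0 to 15. For cold-treated fasted over fed libraries it was 14 and became 0 with 1 surrogate variable, with 3 to 20 on leaving out single libraries. For cold-treated over 72 h-fasted libraries it was 0, and 2 with DESeq2. For 12 h over 1 h it was 6, with 0 to 4 on leaving out single libraries. For 1 week over 12 h it was 17, became 8 with 1 surrogate variable, and was 10 to 18 on leaving out single libraries, all higher. For 1 week over 1 h it was 20, with 11 to 18. At 1 month it was 1, became 0 with 1 surrogate variable, and was 1 to 6 on leaving out single libraries. The replicate block, whose numbers do not pair the libraries, gave 4 in place of 6 for 72 h-fasted over fed and 0 in place of 1 at 1 month. Over all genes, 1 surrogate variable gave 5 calls against 3072 in 72 h-fasted over fed, 121 against 3661 in cold-treated fasted over fed, 456 against 2304 at 1 week over 12 h and 135 against 1506 at 1 month, where the replicate block gave 408. DESeq2 gave 206 against 7 for 24 h-fasted over fed, 1720 against 333 for 72 h over 24 h of fasting and 53 against 0 for cold-treated over 72 h-fasted. The causes were not tested.

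Of 743 recomputed values of single called genes, 557 kept direction and call, 186 kept direction and lost the call, and 0 turned. Group sizes of 3 and 4 libraries limit what can be detected, and a gene that missed the threshold is not shown to be unchanged.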

Other observations

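Of 15 other genes of sterol handling and control, 2 were higher and 2 lower in cold-treated fasted over fed libraries. Abca1, a cholesterol exporter, averaged 172 ± 14.0 CPM in cold-treated fasted libraries and 119 ± 10.8 CPM in fed libraries (SD, n = 3 each), a log2 fold change of 0.54 (edgeR adjusted p = 0.00738). Mbtps1, a protease that releases the sterol-sensing transcription factors, rose by 0.23 on the log2 scale. Nr1h3, an oxysterol receptor, fell by 0.84 and Soat1, which esterifies cholesterol, by 0.29. At 12 h over 1 h of refeeding 2 were lower, Abca1 by 0.41 and Acat2, which makes acetoacetyl-CoA, by 0.28. At 1 week over 12 h 3 were higher, Npc2, a lysosomal sterol carrier, by 0.43, Acat2 by 0.43 and Insig2 by 0.28. At 1 week over 1 h 2 were higher, Npc2 by 0.49 and Insig2 by 0.18, and 5 were lower: Abca1 by 0.32, Cyp46a1, the neuronal cholesterol hydroxylase, by 0.31, Abcg1, another sterol exporter, by 0.28, Scap, the escort of the sterol-sensing factors, by 0.26, and Nr1h2 by 0.21. One month after the fast, Ggps1 was higher than in fed controls by 0.29 and Soat1 by 0.26, and Cyp46a1 was lower by 0.27. The list had 0 calls in the other 4 comparisons.

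Of 21 other genes of fatty acid and glyceride synthesis, Hacd1, a dehydratase of the elongation cycle, rose in 72 h-fasted over fed libraries by 0.75 and Dgat1, which makes triglyceride, by 0.70. In cold-treated fasted over fed libraries 3 were higher, Hacd1 by 0.84, Dgat1 by 0.73 and Hacd2 by 0.40. Hacd1 averaged 56.2 ± 0.586 CPM in 72 h-fasted libraries and 35.5 ± 6.37 CPM in 24 h-fasted libraries (SD, n = 3 each), the 1 call of that comparison (log2 fold change 0.66, edgeR adjusted p = 0.0427). Elovl4 and Mlxip were lower at 12 h over 1 h, by 0.24 and 0.22. At 1 week over 12 h 5 were higher and 0 lower: Mid1ip1, a partner of acetyl-CoA carboxylase, by 0.49, Acsbg1 by 0.38, Acsl3 by 0.33, Slc25a1, the citrate carrier, by 0.26 and Hacd3 by 0.26. At 1 week over 1 h 4 were higher, Mid1ip1 by 0.57, Hacd3 by 0.46, Acsbg1 by 0.45 and Slc25a1 by 0.32, and 3 lower, Dgat2 by 0.53, Mlxip by 0.34 and Elovl4 by 0.25. One month after the fast 2 were higher than in fed controls, Elovl1 by 0.69 and Hsd17b12 by 0.26, both enzymes of fatty acid elongation. The background shares of calls over all genes are those given with each comparison.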
